A study of Rattus norvegicus with 6 samples.

Results

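Transcripts of voltage-gated sodium, potassium and calcium channels were followed in UMR106-01 cells given the protease inhibitor AEBSF. Related channels for chloride and mixed cations, and sodium channels opened by protons, were included. The members were the probe sets whose array annotation names exactly 1 gene with a symbol of the Scn, Kcn, Cacn, Asic, Clcn, Hcn or Trp (a, c, m, v) families. This gave 223 of 31042 probe sets, standing for 142 genes. UMR106-01 is 1 rat osteosarcoma line with osteoblast properties, so the values describe that line and not bone tissue. All 6 cultures grew in 10% fetal bovine serum. Their medium was changed 64 h after plating, and the fresh medium supplied beta-glycerol phosphate at 6.5 mM as the phosphate donor for mineral (the mineralizing condition). In 3 of them the new medium also held AEBSF, an inhibitor of serine proteases, at 400 µM. RNA was collected at 76 h, after 12 h with or without the inhibitor, and each culture gave 1 array. The comparison asks which of these transcripts differ between the 3 mineralizing and the 3 AEBSF cultures.

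Ion channels are membrane proteins that let selected ions run down their gradients. Voltage-gated channels open when the membrane depolarizes: sodium channels carry the fast upstroke of nerve and muscle action potentials, potassium channels restore the resting state, and calcium channels turn depolarization into calcium entry. Pore-forming subunits make the conducting path, and auxiliary subunits change their trafficking and gating. Osteoblasts are not classically excitable, but L-type calcium channels, mechanically responsive cation channels and several potassium channels are known in the bone lineage.

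Every value is a MAS5 signal, the summary that Affymetrix software makes of a probe set's matched and mismatched probes, on a linear scale. Values after ± are the SD of 3 cultures unless given as an SE, and where a pair of means is given the mineralizing one comes first. Log2 fold changes are differences of mean log2 signal, AEBSF minus mineralizing, and folds are computed from them. They are therefore ratios of geometric means and can differ slightly from the ratio of the arithmetic means printed with them. Each array had been scaled to a common level, so a rise or fall is relative to the other probe sets on the array. In bulk RNA, fewer cells with a transcript and less of it per cell cannot be told apart. Only probe sets above the 40th percentile of mean log2 signal, a signal of 67.2, were tested. That filter is not a detection limit. Of 13 probe sets for 10 osteoblast marker genes, 9 lay above it. The signal of Ibsp, a bone matrix protein, ran from 15661 to 17285 over the 6 arrays. Among the others Phex, Col1a1 and Col1a2, genes of bone mineral and matrix, fell on all 5 of their tested probe sets. These were the only calls among the 9, or 55.6%, where 13.4% of all tested probe sets were called. The median log2 fold change of the 9 was -0.67, and 3 of the 10 genes had no tested probe set. The summed signal of the list, most of it from Ibsp, was 28031 to 29334 without AEBSF and 25437 to 26384 with it. Of 17 probe sets for neuronal markers 6 were tested, and 2 of these fell, both of Map2, a microtubule protein (the dimmer one in only 2 of the 6 fits that left out an array). The other 4 tested neuronal probe sets had estimates above 0 and did not pass, 3 of them, in Nefl, Elavl3 and Syn1, with groups that did not overlap. Over all tested probe sets 16.2% were higher without overlap and 7.41% were called lower, and whether the neuronal shares differ from these was not tested. The median log2 fold change of the 6 neuronal probe sets was 0.41. The summed signal of the 10 neuronal markers, 1 probe set each with Map2 included, was 1979 to 2150 without AEBSF and 1713 to 1798 with it, so the sum and the median differed in sign, and the part of either list in the channel results was not tested. Of 9 probe sets for skeletal muscle markers, 1 was tested, and it did not pass in limma (0 at an unadjusted p under 0.05), with summed signals of 219 to 255 without AEBSF and 171 to 323 with it.

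Most channel transcripts gave little signal in this line. Of the 223 probe sets 67 were tested, representing 55 genes, and 156 lay below the filter, so that 87 genes had no tested probe set. The probe set just above the filter was that of Scn4b, a sodium channel beta subunit, with a geometric mean signal of 67.9 over the 6 arrays, and the one just below was a probe set of the potassium channel gene Kcnq5, with 65.2. The members had a median signal of 31.0, against 128 over all 31042 probe sets. The 67 tested ones had a median signal of 136, against 449 over all tested probe sets. The median SE of their log2 fold changes was 0.20, against 0.11 over all tested.

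With AEBSF, 5 of the 67 tested probe sets fell and 2 rose at a limma adjusted p under 0.05, and 60 did not pass. The falls were in Scn7a, Scn1a, Kcnk6, Cacna1c and Clcn3, and the rises in Kcnj14 and Asic1. Over all 18625 tested probe sets 13.4% passed, 7.41% lower and 5.99% higher, against 10.4% of the channel probe sets. That background is not matched for signal, and most tested channel probe sets were dim. Below the median signal of all tested probe sets, 11.1% of the channel probe sets passed, against 6.59% of all. At or above it 7.69% passed, against 20.2% of all. The split was chosen after the data were seen, and whether these shares differ was not tested. The groups of 3 did not overlap for 15 of the 67 channel probe sets, 10 lower and 5 higher with AEBSF, where 32.7% of all tested probe sets had groups that did not overlap, 16.5% lower and 16.2% higher. With the brightest probe set of each gene alone, 2 of 55 channel genes rose and 4 fell, or 10.9%, against 16.3% of all genes tested (7.09% higher and 9.22% lower). The median log2 fold change of the 67 was -0.06, against 0.01 over all tested probe sets. It was 0.04 without AEBSF culture 3. Under hybridization-control scaling instead, the median of all tested probe sets moved to -0.13 and that of the channels to -0.21, and 1 channel probe set rose and 6 fell, beside 119 and 2457 of all tested probe sets (1115 and 1380 as deposited). By ion, 3 of 7 tested sodium channel probe sets were called, 2 of 29 for potassium, 1 of 11 for calcium and 1 of 8 for chloride. The Hcn and Trp groups had 0 of 2 and 0 of 10, as the count of outcomes by ion shows. Whether the ions differ in these shares was not tested.

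**Figure D1:**
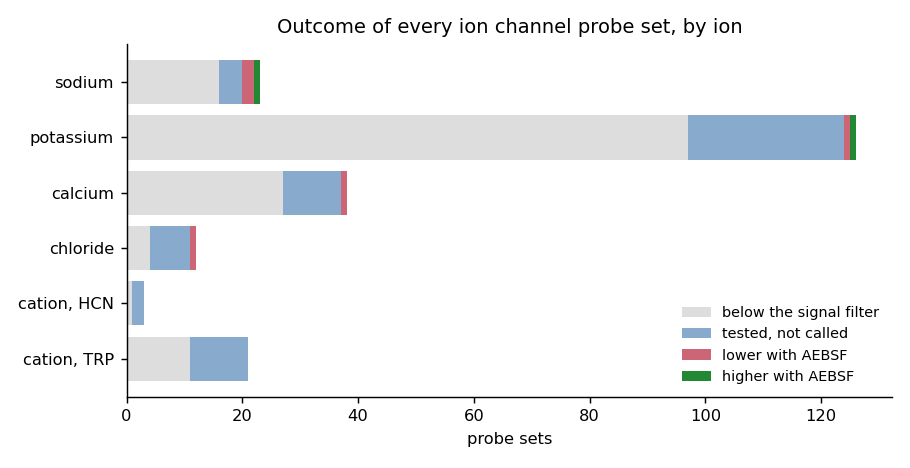
Number of ion channel probe sets (horizontal axis) for each ion group (vertical axis), divided into those below the signal filter, those tested and not called, and those lower or higher with AEBSF at a limma adjusted p under 0.05. Potassium channels are the most numerous with 126 probe sets, of which 97 lay below the filter, while 8 of the 12 chloride probe sets were tested.

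Among the sodium channels, 7 of 23 probe sets were tested, and 2 fell and 1 rose. Scn7a encodes the sodium channel relative that senses extracellular sodium and does not open on depolarization. Its signals were 144, 182 and 171 in mineralizing cultures 1 to 3 and 58.7, 59.7 and 92.3 in AEBSF cultures 1 to 3. All 3 AEBSF cultures lay below all 3 mineralizing cultures, and 2 of them lay below the signal at the filter. This was a 2.40-fold fall by geometric means, and the arithmetic means were 166 ± 19.9 and 70.2 ± 19.1 (SD, n = 3 each). Its log2 fold change was -1.26 with an SE of 0.23 (adjusted p = 0.00447 in limma). No other of the 67 tested channel probe sets had a larger estimate in either direction.

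Scn1a, the pore-forming subunit of a sodium channel best known from inhibitory neurons and epilepsy, had signals of 297, 262 and 280 without AEBSF and 133, 162 and 110 with it. The groups did not overlap, and every AEBSF culture was below every mineralizing culture by more than the range within either group. Scn1a fell 2.10-fold by geometric means, and the arithmetic means were 280 ± 17.7 and 135 ± 25.9 (SD, n = 3 each). The estimate was a log2 fold change of -1.07 with an SE of 0.16 (adjusted p = 0.00185 in limma). Scn7a and Scn1a each have 1 probe set on this array, so neither fall could be compared with a second measurement of the same gene. Both calls held without any 1 of the 6 arrays.

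The 2 genes lie close together. In the RefSeq gene order of assembly GRCr8, Scn1a, Scn9a and Scn7a follow each other on chromosome 3, with Scn3a and Scn2a on the other side of a few unrelated genes. The other 3 sodium channel genes of that cluster were below the filter, with signals of 16.8 to 32.4 for Scn9a, 12.6 to 33.0 for Scn2a and 1.99 to 11.6 for Scn3a over the 6 arrays. Of the other genes inside or flanking the cluster, Cobll1 was tested and did not pass (78.5 to 108; limma adjusted p = 0.726), and Csrnp3 and Galnt3 lay below the filter. The 2 calls in the cluster are therefore of its only sodium channel probe sets above the filter.

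Asic1 encodes a sodium channel opened by extracellular protons. Its tested probe set had signals of 77.8, 77.0 and 110 without AEBSF and 171, 144 and 124 with it. The groups did not overlap, though mineralizing culture 3 and AEBSF culture 3 came close. This probe set rose 1.67-fold by geometric means, with arithmetic means of 88.3 ± 18.8 and 146 ± 23.9 (SD, n = 3 each). Its log2 fold change was 0.74 with an SE of 0.22 (adjusted p = 0.0423 in limma). The other 3 probe sets of Asic1 lay below the filter, at geometric mean signals of 18.8 to 43.0, and in each of them the groups overlapped. They did not share a direction: 1 stood at 39.8 ± 13.3 and 50.1 ± 16.3, 1 at 20.4 ± 5.21 and 21.4 ± 12.6. The remaining 1 was lower with AEBSF, at 43.5 ± 14.4 and 22.4 ± 9.39, opposite to the tested probe set. Leaving out mineralizing culture 1, mineralizing culture 2, AEBSF culture 1 or AEBSF culture 2 ended the Asic1 call (0.131, 0.127, 0.142 and 0.0813 as limma's adjusted p), as did scaling by hybridization controls (0.102).

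The other tested sodium channel probe sets did not pass. Scn11a, a channel of pain-sensing neurons, stood at 150 ± 21.4 and 127 ± 29.0 (limma adjusted p = 0.46). Scn10a, another sensory neuron channel, stood at 88.4 ± 16.6 and 124 ± 45.0 (log2 fold change 0.44, SE 0.28), with overlapping groups. The beta subunits Scn3b and Scn4b, which accompany the pore-forming subunits, had log2 fold changes of 0.17 and -0.13. Of 9 probe sets for acid-sensing channels, the other 8 were below the filter.

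The start regions of the largest fall and the largest rise are shown as context for these genes. The sequences are the 250 bases before the RefSeq gene start in GRCr8, 5′ to 3′ on the gene's strand. Scn7a lies at chr3:71846285-71846534 on the minus strand, and Kcnj14, a potassium channel gene described next, at chr1:105437259-105437508 on the minus strand. Capitals mark matches on either strand to the GC box GGGCGG.
Scn7a: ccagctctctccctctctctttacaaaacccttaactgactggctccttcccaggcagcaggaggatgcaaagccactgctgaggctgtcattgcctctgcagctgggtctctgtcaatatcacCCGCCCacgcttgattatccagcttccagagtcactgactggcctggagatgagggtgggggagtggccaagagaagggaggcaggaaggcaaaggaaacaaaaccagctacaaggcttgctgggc
Kcnj14: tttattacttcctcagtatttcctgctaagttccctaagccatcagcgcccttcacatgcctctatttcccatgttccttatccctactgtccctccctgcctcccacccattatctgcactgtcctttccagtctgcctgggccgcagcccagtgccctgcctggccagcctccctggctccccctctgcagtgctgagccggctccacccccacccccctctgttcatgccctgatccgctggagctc
The windows were also searched on both strands for the ER stress element (CCAAT, any 9 bases, then CCACG), the sequences TGACGTG and TCACNCCAC, which ATF6 and SREBP factors are known to bind, the cyclic AMP element TGACGTCA and the CCAAT box, which is also part of the ER stress element. None of these was in either window, and the GC box occurred once in that of Scn7a. Of 33469 windows of this length 30.5% held a GC box, 34.0% a CCAAT box, 1.54% TGACGTG, 0.974% TCACNCCAC, 1.59% the cyclic AMP element and 0.0657% the ER stress element. These matches describe letters in the windows only. Among 118 windows of channel members 47.5% held a GC box and 23.7% a CCAAT box. Windows of 3 other called genes are not printed: that of Asic1 held 2 GC boxes, that of Cacna1c 1 CCAAT box, and that of Clcn3 none of the sequences. Scn1a and Kcnk6 are named without a window.

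Of 126 potassium channel probe sets 29 were tested, and 1 rose and 1 fell. Kcnj14 encodes an inward rectifier, a channel that passes potassium more readily into the cell than out and helps to set the resting potential. Its signals were 110, 167 and 110 without AEBSF and 297, 229 and 215 with it. The groups did not overlap, with AEBSF culture 1 the highest of the 6. Kcnj14 rose 1.94-fold by geometric means, with arithmetic means of 129 ± 33.0 and 247 ± 43.9 (SD, n = 3 each). Its log2 fold change was 0.96 with an SE of 0.20 (adjusted p = 0.00985 in limma). The call held without any 1 array and after scaling to hybridization controls. The other 5 tested probe sets of inward rectifiers, in Kcnj3, Kcnj4, Kcnj8 and Kcnj11, did not pass, with log2 fold changes of -0.18 to 0.42, and 20 of the 26 inward rectifier probe sets lay below the filter.

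Kcnk6 belongs to the potassium channels with tandem pore domains, which leak potassium at rest. One of its probe sets had signals of 151, 176 and 180 without AEBSF and 112, 72.3 and 91.7 with it. No AEBSF value reached the lowest mineralizing value. This probe set fell 1.86-fold by geometric means, with arithmetic means of 169 ± 15.4 and 92.0 ± 19.9 (SD, n = 3 each). Its log2 fold change was -0.90 with an SE of 0.20 (adjusted p = 0.0147 in limma). The other Kcnk6 probe set had signals of 142, 136 and 125 against 129, 99.7 and 123 and did not pass (log2 fold change -0.20 ± 0.18 SE, adjusted p = 0.497 in limma), so the gene's probe sets point the same way but differ in size and in outcome. Without either of mineralizing cultures 2 and 3 Kcnk6 no longer passed (0.0571 and 0.0543 as limma's adjusted p).

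The potassium channel probe sets with the most signal did not pass. Kcnk1, a relative of Kcnk6, stood at 696 ± 56.3 and 642 ± 73.1 (limma adjusted p = 0.467). Kcnma1 encodes the pore of the large-conductance channel opened by calcium and voltage. Its brightest probe set had signals of 581, 663 and 609 without AEBSF and 505, 463 and 562 with it, groups that did not overlap (log2 fold change -0.28 ± 0.10 SE, adjusted p = 0.0766 in limma). Of the fits that left out an array, this probe set passed in limma only without AEBSF culture 3 (adjusted p = 0.0404). That culture lay nearest the mineralizing values, so leaving it out widens the gap and the pass adds no support. With hybridization controls setting the scale the probe set also passed in limma (adjusted p = 0.0161). A dimmer Kcnma1 probe set stood at 95.4 ± 16.4 and 74.9 ± 35.4 (log2 fold change -0.48, SE 0.36), with overlapping groups. Kcnmb4, an auxiliary subunit of that channel, stood at 552 ± 57.2 and 529 ± 61.2. Kcnd3, a voltage-gated channel of the transient outward current, stood at 140 ± 18.7 and 102 ± 6.21 without overlap and did not pass (log2 fold change -0.44 ± 0.18 SE, adjusted p = 0.135 in limma).

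All 10 probe sets of electrically silent subunits, which conduct only with a partner, lay below the filter, as did the 7 of the single-span Kcne subunits and the 3 of the small- and intermediate-conductance calcium-activated channels. Kcnip3, an interacting protein of transient potassium channels that also acts as a calcium-binding repressor, was chosen after its values were seen, because its groups did not overlap. Its brighter probe set stood at 341, 425 and 364 against 474, 469 and 459 (log2 fold change 0.32 ± 0.10 SE, adjusted p = 0.0648 in limma), and the dimmer one had a log2 fold change of -0.14. Of the fits that left out an array, the brighter one passed only without mineralizing culture 2 (limma adjusted p = 0.0498). That culture lay nearest the AEBSF values, so leaving it out widens the gap and the pass adds no support. Kcnh3, another potassium channel gene named after its values were seen, was lower without overlap, at 257 ± 3.48 and 221 ± 14.4. It did not pass (log2 fold change -0.22 ± 0.12 SE, adjusted p = 0.268 in limma).

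**Figure D2:**
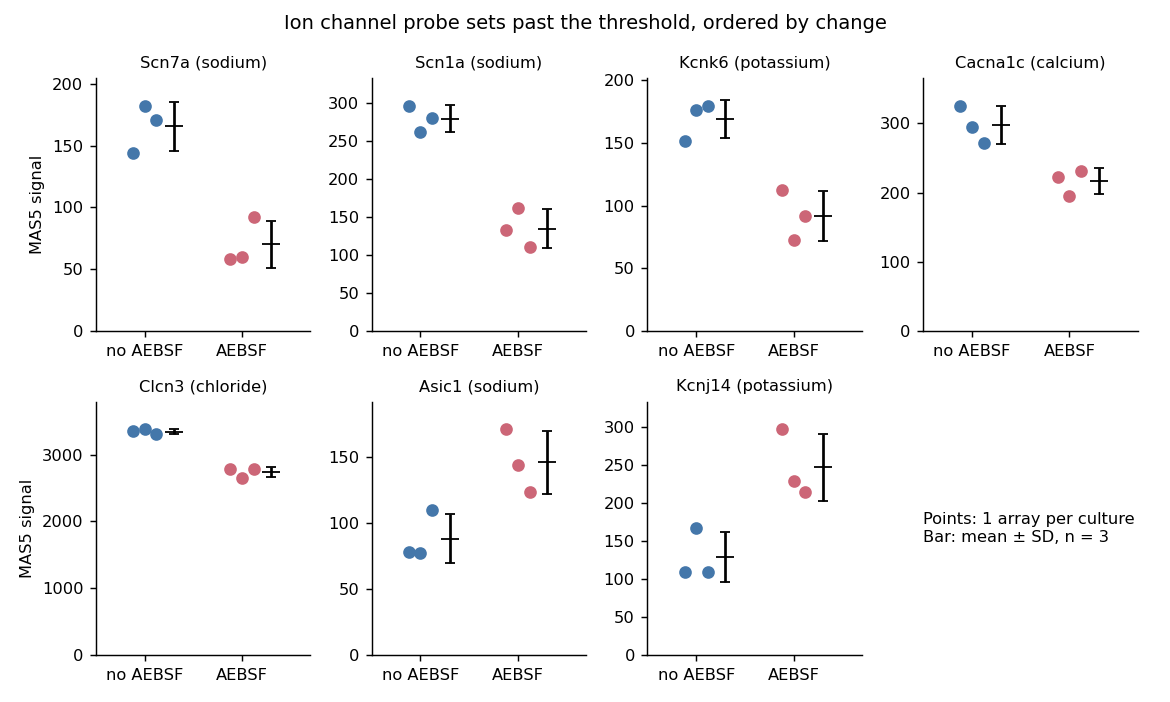
MAS5 signal (vertical axes, starting at 0) of the 7 called channel probe sets in each of the 3 mineralizing cultures (no AEBSF, blue) and the 3 AEBSF cultures (red); black bars are mean ± SD. In every panel the 2 groups do not overlap, and the panels run from the largest fall, Scn7a, to the largest rise, Kcnj14.

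Of 38 calcium channel probe sets 11 were tested and 1 fell. Cacna1c encodes the pore of the L-type channel, the main voltage-gated route of calcium entry known in osteoblasts. Its brighter probe set had signals of 325, 295 and 271 without AEBSF and 223, 195 and 231 with it. The groups did not overlap, and the lowest mineralizing value was 271 against a highest AEBSF value of 231. It fell 1.37-fold by geometric means, with arithmetic means of 297 ± 27.4 and 217 ± 19.0 (SD, n = 3 each). Its log2 fold change was -0.46 with an SE of 0.13 (adjusted p = 0.0386 in limma). The other tested probe set of Cacna1c did not pass, at 81.4 ± 7.98 and 73.5 ± 20.1 (log2 fold change -0.18, SE 0.26). Cacna1c passed in 1 of the 6 fits that left out an array, the one without AEBSF culture 3. Without mineralizing cultures 1, 2 and 3 in turn limma's adjusted p was 0.151, 0.104 and 0.0519, and without AEBSF cultures 1 and 2 it was 0.0718 and 0.1.

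The other pore-forming calcium channel genes with a tested probe set were Cacna1h, of the low-voltage-activated T-type, and Cacna1a. Cacna1h stood at 122 ± 60.6 and 79.5 ± 29.6, a log2 fold change of -0.58 with an SE of 0.35, where mineralizing culture 3, at 192, was the highest of the 6. Cacna1a had a log2 fold change of -0.01. Of the auxiliary subunits, Cacna2d1, an extracellular subunit that promotes surface delivery of the pore, stood at 403 ± 11.4 and 418 ± 18.8 (limma adjusted p = 0.744). The cytosolic beta subunit Cacnb3 stood at 328 ± 12.8 and 302 ± 74.8 (limma adjusted p = 0.592), with AEBSF culture 3 the lowest at 222. Of the 7 tested auxiliary probe sets 0 passed in limma (0 at an unadjusted p under 0.05), and their log2 fold changes ran from -0.15 to 0.23. The highest was of a probe set of the beta subunit gene Cacnb2, named after its values were seen. Its groups did not overlap, at 81.2 ± 7.07 and 95.4 ± 2.89 (limma adjusted p = 0.491).

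The chloride group is made of the Clcn genes, some of which are plasma-membrane channels and others chloride-proton exchangers of endosomes and lysosomes. Of 12 probe sets 8 were tested and 1 fell. Clcn3, an endosomal exchanger, has 4 probe sets, all tested. The brightest had signals of 3347, 3380 and 3302 without AEBSF and 2788, 2649 and 2777 with it. The gap between the groups was larger than the range within either of them. It fell 1.22-fold by geometric means, with arithmetic means of 3343 ± 39.5 and 2738 ± 77.4 (SD, n = 3 each). The log2 fold change was -0.29 with an SE of 0.05 (adjusted p = 0.00444 in limma). The other 3 had log2 fold changes of -0.12, -0.13 and -0.17 and did not pass (limma adjusted p = 0.198, 0.257 and 0.142), with groups that overlapped in 1 of the 3. All 4 estimates were below 0, and the call held without any 1 array.

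Clcn7, the lysosomal exchanger that osteoclasts need to acidify bone, was named after its values were seen because its groups did not overlap. Its signals were 281, 301 and 302 without AEBSF and 386, 390 and 331 with it, and it did not pass (log2 fold change 0.32 ± 0.11 SE, adjusted p = 0.0751 in limma). Of the fits that left out an array, it passed only without AEBSF culture 3 (limma adjusted p = 0.0476). That culture lay nearest the mineralizing values, so leaving it out widens the gap and the pass adds no support. Clcn6, an exchanger of late endosomes, had log2 fold changes of 0.02 and -0.09 on its 2 tested probe sets. The plasma-membrane channel gene Clcn2 stood at 85.9 ± 15.9 and 108 ± 12.5 (limma adjusted p = 0.344). Clcn4 and Clcn5 were below the filter, at geometric mean signals of 23.7 to 62.8.

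Among the hyperpolarization-activated cation channels, which pace rhythmic cells, Hcn2 stood at 243 ± 53.5 and 265 ± 27.4 and Hcn3 at 93.4 ± 13.5 and 112 ± 24.6. Neither passed in limma (0 of the 2 at an unadjusted p under 0.05), and Hcn4, at 6.60 to 9.89 over the 6 arrays, was below the filter.

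In the transient receptor potential (TRP) group 10 of 21 probe sets were tested, and 0 passed in limma, with 2 at an unadjusted p under 0.05. Trpm7, a channel fused to a protein kinase that carries magnesium and calcium, stood at 1413 ± 126 and 1373 ± 154 on 1 probe set and at 995 ± 53.0 and 893 ± 120 on the other (log2 fold change -0.04 and -0.16). Trpv4, a channel opened by osmotic and mechanical stimuli, had a log2 fold change of -0.10 (SE 0.10). No tested TRP probe set had groups that did not overlap.

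The TRP probe sets with the largest changes had wide errors. Trpm4, a cation channel opened by calcium, stood at 141 ± 27.1 and 97.4 ± 28.9 (log2 fold change -0.55 ± 0.24 SE, adjusted p = 0.155 in limma). Trpv6, a calcium-selective channel of absorptive epithelia, stood at 88.6 ± 61.8 and 107 ± 18.1 (log2 fold change 0.52, SE 0.42), and its mineralizing values ran from 34.9 to 156. Trpc4ap also matches the symbol rule, but it is a protein that binds a TRP channel and takes part in ubiquitin ligase complexes, not a channel. It stood at 985 ± 54.8 and 1078 ± 51.8 (log2 fold change 0.13 ± 0.07 SE, adjusted p = 0.254 in limma).

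By role, 6 of 46 tested pore-forming probe sets passed, 4 lower and 2 higher, as did 1 of 7 tested exchanger probe sets. These shares, 13.0% and 14.3%, were near the 13.4% of all tested probe sets. Of 13 tested auxiliary probe sets 0 passed in limma, with 1 at an unadjusted p under 0.05. Whether the roles differ was not tested. The estimates of all tested channels, with their errors, are in the plot of tested probe sets.

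**Figure D3:**
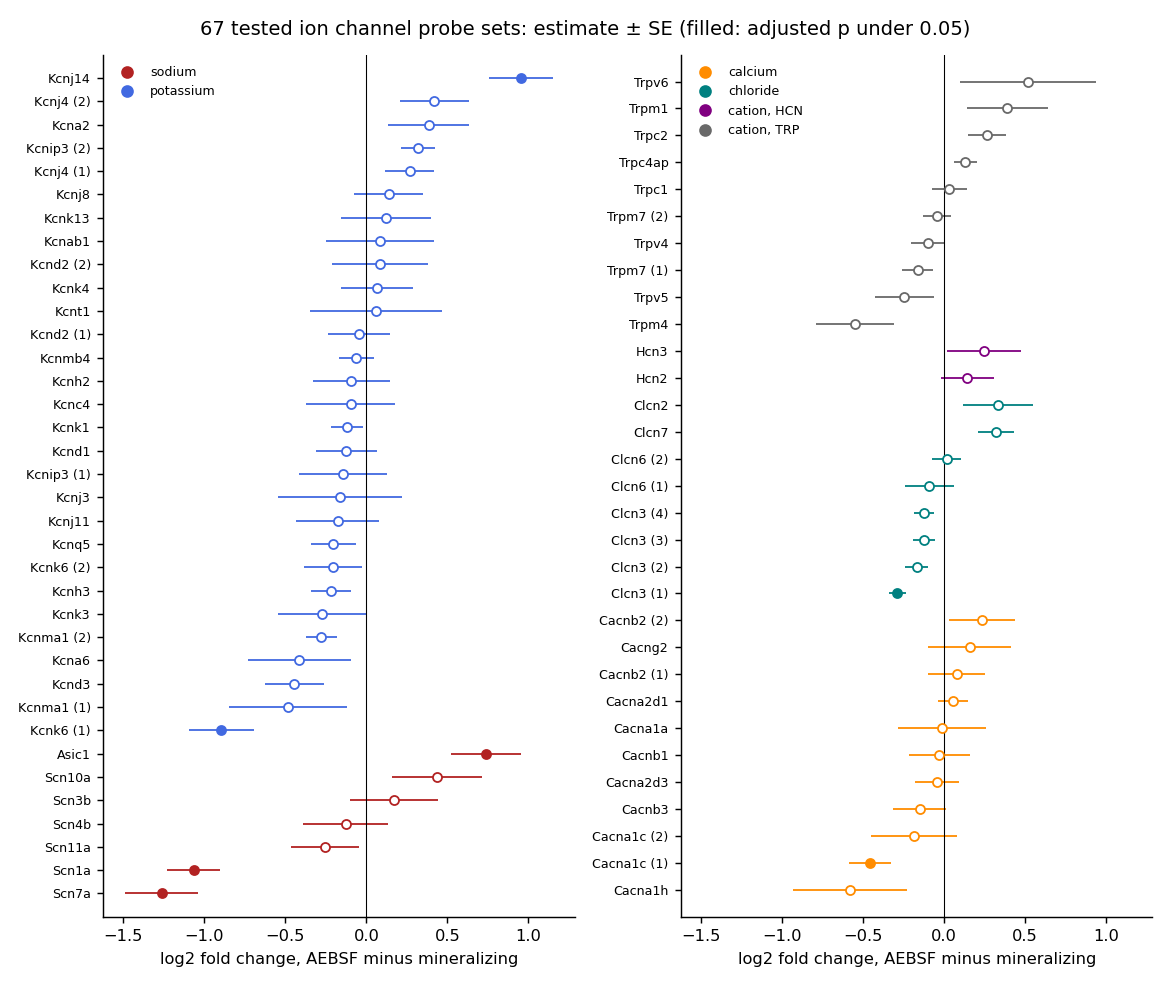
Log2 fold change, AEBSF minus mineralizing (horizontal axis), with limma's SE for each of the 67 tested channel probe sets, grouped and coloured by ion; filled points passed a limma adjusted p of 0.05, and a number in brackets counts the probe sets of a gene from the lowest estimate. The 7 filled points run from Scn7a at -1.26 to Kcnj14 at 0.96, and most open points have bars that reach or come near 0.

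Dim probe sets had wider errors. Of the 67 tested channel probe sets 54 had a mean signal below 449, the median of all tested probe sets, and 13 were at or above it. The split at that median was chosen after the data were seen. The median SE was 0.22 for the dimmer and 0.09 for the brighter ones. Of the 54 dimmer ones 6 passed (11.1%), where 6.59% of all tested probe sets below that signal did. Of the 13 brighter ones 1 passed (7.69%), where 20.2% of all did. Of the 7 calls 5 were at least 1.5-fold, in Scn7a, Scn1a, Kcnk6, Kcnj14 and Asic1, all below the median signal. Over all tested probe sets 2.34% were called at that size, and 3.35% of those below the median signal.

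**Figure D4:**
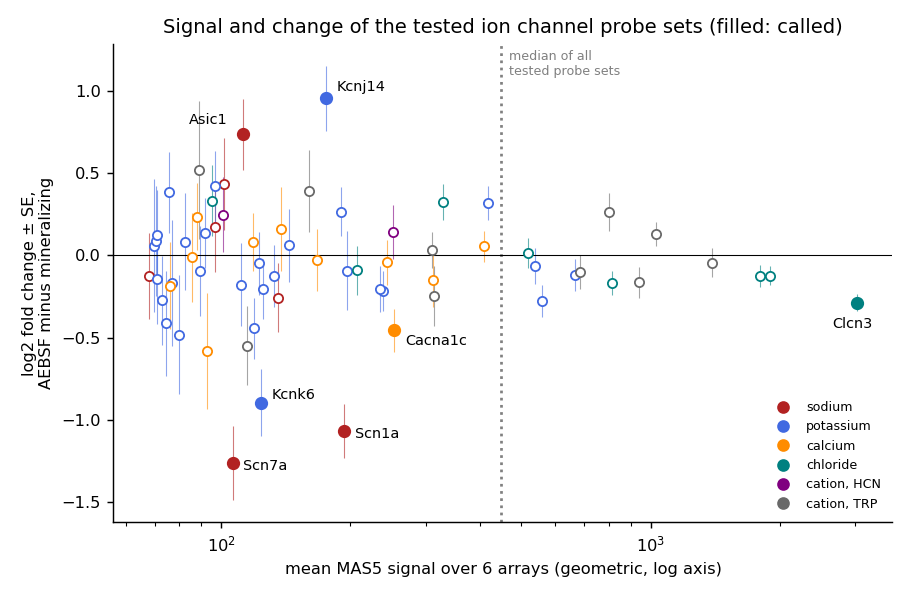
Log2 fold change with SE (vertical axis) against the mean MAS5 signal over 6 arrays (horizontal log axis) for the 67 tested channel probe sets, coloured by ion; filled points were called and the dotted line marks the median signal of all tested probe sets, 449. The 5 calls of at least 1.5-fold lie left of the line, where the errors are widest, and Clcn3, at a signal of 3025, is the only call to its right.

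Other genes of ion transport were followed in 7 lists, to be read against the 7.41% of all tested probe sets that fell and the 5.99% that rose. At 7.69% and 9.09% lower, calcium release and other chloride transport were near that share. In intracellular calcium release and store-operated entry, 2 of 26 tested probe sets fell and 0 rose, and the median log2 fold change of the list was 0.02. Itpr1, a calcium release channel of the ER opened by inositol trisphosphate, had signals of 1843, 1776 and 1881 without AEBSF and 1275, 1304 and 1332 with it, and fell by 0.49 on the log2 scale (SE 0.06, limma adjusted p = 0.000459). The groups lay far apart. Saraf, which switches off store-operated entry, fell by 0.36 on that scale (SE 0.07, limma adjusted p = 0.00502).

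Among calcium pumps and exchangers, 2 of 17 tested probe sets fell and 0 rose, with a median of -0.17. Both were sodium-calcium exchangers of the plasma membrane: Slc8a1, from 534 ± 78.7 to 381 ± 26.8 (log2 fold change -0.48 ± 0.11 SE, adjusted p = 0.0192 in limma), and Slc8a3, from 1047 ± 80.8 to 858 ± 64.4 (-0.29, SE 0.08, limma adjusted p = 0.04). Slc8a1 did not pass when the first culture of either group was left out (0.0872 and 0.0593 as limma's adjusted p). Slc8a3 did not pass without mineralizing culture 1, mineralizing culture 2, AEBSF culture 1 or AEBSF culture 3 (0.153, 0.131, 0.0585 and 0.1). Under hybridization-control scaling 6 probe sets of these pumps and exchangers fell, as did 4 of those for calcium release and entry, where 2457 of all 18625 tested probe sets fell.

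The sodium-potassium pump list had 5 tested probe sets, of which 2 rose and 0 fell, with a median of 0.19. Both rises were in Atp1b1, the beta subunit that brings the pump to the membrane, which stood at 290.5 ± 14.8 and 376 ± 12.6 on 1 probe set and 304 ± 21.5 and 418 ± 15.0 on the other (log2 fold change 0.37 and 0.46, limma adjusted p = 0.0351 and 0.0141). Neither passed under hybridization-control scaling (limma adjusted p = 0.329 and 0.13). The first was lost without each of the 6 arrays in turn, and the second without mineralizing culture 1.

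Among 5 tested probe sets of other sodium and ATP-gated channels, 1 fell and 0 rose, with a median of -0.31. Nalcn, the sodium leak channel, had signals of 1206, 1153 and 1327 without AEBSF and 970, 788 and 939 with it, and it fell by 0.45 on the log2 scale (SE 0.09, limma adjusted p = 0.00706). The groups did not overlap, and the call held without any 1 array. Under that scaling 2 probe sets of this list fell. In other chloride channels and cotransporters 2 of 22 fell and 0 rose, with a median of -0.02. They were Slc12a4, a potassium-chloride cotransporter (log2 fold change -0.56, SE 0.10), and Ano1, a chloride channel opened by calcium (-0.46, SE 0.06).

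Of 15 tested probe sets of channel regulators 3 fell and 0 rose, with a median of -0.08. Fgf13, an intracellular relative of growth factors that binds sodium channels, fell from 938 ± 12.3 to 738 ± 7.95 (log2 fold change -0.35 ± 0.07 SE, adjusted p = 0.0066 in limma). The other calls were of 2 among the 6 tested probe sets of Nedd4, a ubiquitin ligase whose relatives remove channels from the membrane, at log2 fold changes of -0.20 and -0.60. Each of those was lost without 5 of the 6 arrays in turn (limma adjusted p up to 0.139 and 0.12).

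Among connexins and pannexins, which join cells or open to the outside, 4 of 9 tested probe sets fell and 0 rose, with a median of -0.12. Panx3, a pannexin of bone and cartilage cells, fell from 4403 ± 45.2 to 2874 ± 133 (log2 fold change -0.62 ± 0.05 SE, adjusted p = 5.79e-05 in limma). Gja1, which encodes connexin 43, the main gap junction protein of osteoblasts, fell on both tested probe sets (log2 fold change -0.46 and -0.23), and Gjb5 fell by 0.74 on the log2 scale (SE 0.13). The smaller Gja1 change did not pass when the first culture of either group was left out (0.0532 and 0.0515 as limma's adjusted p).

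**Figure D5:**
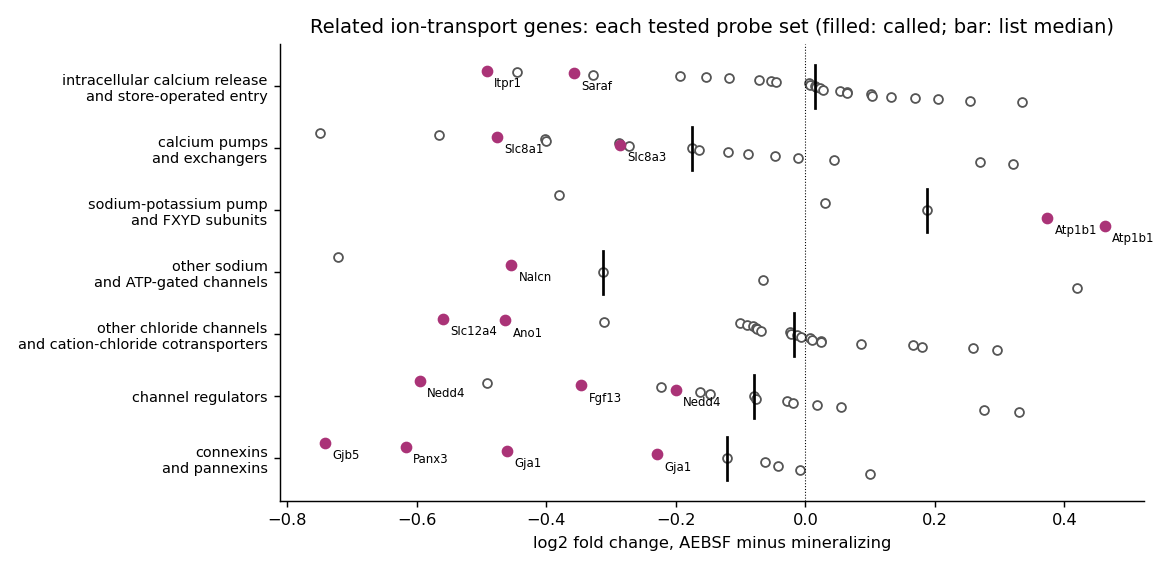
Log2 fold change, AEBSF minus mineralizing (horizontal axis), of each tested probe set in 7 lists of related ion-transport genes (vertical axis, 1 row per list); filled points passed a limma adjusted p of 0.05 and bars mark list medians. The calls lie below 0 in 6 lists, and the 2 calls in the sodium-potassium pump list, both of Atp1b1, lie above it.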

How the data were processed

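Rat UMR106-01 cultures were measured on 6 Affymetrix arrays, 1 per culture, 3 in each group, with groups and replicate numbers taken from the sample titles. The deposited values are MAS5 intensity signals made by the authors with GCOS, per the submitters' processing notes. The software version, the target level and any detection call were not given in the sources used here. A trimmed mean over the probe sets came to 500.1 to 500.2 on every array, so each had been scaled to a common level. Such scaling makes every change relative to the other probe sets, and MAS5 signals of dim probe sets are noisy. The number of arrays limits the precision. Each limma p-value sets a group difference against the spread between cultures, drawn toward a trend over all tested probe sets. It covers no variation beyond these 6 cultures.

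Of 31099 probe sets 57 controls were left out. Of the rest, the platform annotation gave 20826 probe sets 1 gene symbol, 436 several and 9780 none. Entrez numbers of 20758 matched the RefSeq table of GRCr8. One probe set with several symbols, 1 of them matching the rule, was not used. Log2 signals, with no constant added and no further normalization, were fitted with limma 3.58.1 (R 4.3.3; lmFit, eBayes with an intensity trend). Probe sets with a mean log2 signal above the 40th percentile were tested, with Benjamini-Hochberg adjustment over all 18625 and a threshold of 0.05. On simulated data it called 67% of log2 changes of 0.5 and 99% of those of 1, with 12 false calls. That noise was normal with an SD set by signal alone, which real dim signals need not follow. Named by rule were all probe sets of genes that passed and the 3 brightest of each ion group. The rule also took the 6 largest changes that did not pass and the neighbours of the filter. Further members were named outside this rule, and not each of them is marked as such. The members and lists were chosen with earlier results of these data known.

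No array pair shared more than 2 equal values among the 15 pairs. Ratios of 3′ to 5′ probe sets were 1.46 to 1.61 for actin and 1.02 to 1.08 for GAPDH. Alternatives covered scaling, added constants, filters, variance priors, a replicate block, leaving out each array, and 1 probe set per gene. Promoter windows came from a separate set of promoter sequences, which matched 105 of 142 member genes.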

Additional observations from a re-analysis of the deposited data

How the results depend on the processing

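Dim channel probe sets had wider errors than bright ones, and each group had 3 arrays. Against 2 channel probe sets higher and 5 lower, scaling to 18 hybridization controls gave 1 higher, with 119 higher and 2457 lower over all probe sets. No filter gave 1 channel probe set higher and 4 lower, beside 710 and 1020 of all 31042. A filter at the 20th percentile gave 1 higher and 5 lower of 138, beside 876 and 1168 of all 24833. A filter at the 60th percentile gave 0 higher and 2 lower of 22, beside 1190 and 1351 of all 12417. At that filter Scn1a, Scn7a, Kcnk6, Kcnj14 and Asic1 were not tested. A constant variance prior gave 0 higher and 3 lower (285 and 600 over all). With the replicate block 1 channel probe set was higher and 4 were lower, among 764 and 1038 of all. Deviations of same-numbered cultures from their group means correlated at 0.01, -0.12 and -0.04, and those of differently numbered ones at -0.06 to 0.09. Whether the numbers pair the cultures cannot be told from these values. Leaving out 1 array at a time gave 1 to 3 channel probe sets higher and 3 to 6 lower, and 488 to 995 higher and 712 to 1255 lower over all.

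Scn1a and Scn7a were called in all 16 alternatives that tested them, Kcnj14 in 15 of 16, Clcn3 in 16 of 17, Kcnk6 in 14 of 16, Cacna1c in 9 of 17 and Asic1 in 7 of 16, each with an unchanged sign. With a constant variance prior Kcnj14 and Clcn3 lost their calls (limma adjusted p = 0.053 and 0.0557). Of 490 values of 30 named probe sets 455 kept direction and side of the threshold, 21 lost and 2 gained a call, and 12 changed sign, none of them called. As log2 fold changes, hybridization scaling took Cacna2d1 to -0.0915, Hcn2 to -0.00299 and Trpc4ap to -0.0156. Over the 6 fits without 1 array the dimmer Cacna1c probe set ran from -0.318 to 0.0688, the dimmer Kcnma1 one from -0.754 to 0.0109, Hcn2 from -0.0227 to 0.300, Cacnb3 from -0.314 to 0.0552, Kcnmb4 from -0.149 to 0.0168, Trpv6 from -0.0238 to 1.06 and the brighter Trpm7 probe set from -0.127 to 0.0335. The cause of these changes was not tested.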
